A study of Bos taurus with 9 samples.

Results

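The 227 probesets described here were higher by at least 1 on the log2 scale in bovine chromaffin cells treated with PACAP than in untreated cells, and were not raised to a comparable size by TNF-alpha (TNF). A probeset is a group of short probes on an Affymetrix array that reports on 1 transcript or on several related ones. Members were chosen by their measured values: a difference of at least 1 between the means of the 3 PACAP and the 3 untreated arrays, a difference of at least 0.5 in each of the 3 pairs of same-repeat arrays, and a TNF minus untreated difference of the means under 0.5. They made up 0.945% of the 24016 probesets on the array that are not controls. All 9 arrays entered this choice, so the differences from untreated cells are given as a description and were not tested as findings.

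The study compared primary cultures of bovine adrenal chromaffin cells in 3 groups of 3 arrays: untreated cells, cells given 100 nM PACAP-38 for 6 h and cells given 10 nM TNF for 6 h. Per the protocols given for the treated samples, cells were dissociated from the digested medulla of perfused glands, and chromaffin cells were enriched by differential plating; the untreated samples carry no protocol text. No label gives the age or number of animals. RNA came from whole cultures, so fewer cells of a type and less RNA per cell cannot be told apart. The Agilent arrays of the same study were not analysed here. The series describes the repeats as technical, so any spread or test below measures the spread between arrays and not between animals. The deposited values are log2 expression values made by RMA, which corrects background, equalises the distributions of the arrays and summarises the probes of a probeset.

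PACAP is a peptide transmitter released by the splanchnic nerve onto chromaffin cells, the catecholamine-secreting cells of the adrenal medulla. It acts through a G protein-coupled receptor that raises cyclic AMP and calcium, and it is known to induce genes for neuropeptides and other secreted proteins in these cells. TNF is an inflammatory cytokine that signals through its own receptors, largely to the transcription factor NF-kB. The IDs of the probesets are not paired with gene names in the sources used here, and 0 of them matched the gene table. Members are therefore numbered from 1, the largest PACAP difference, to 227, the smallest, and no gene, role or sequence is given; the chromaffin and other cell type markers could not be checked for the same reason.

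Of the 311 probesets with a PACAP difference of at least 1, 12 had a pair under 0.5, leaving 299. The limit on TNF then removed 72 and kept the 227 members, 75.9% of the 299. The thresholds cut through a continuous range of values. The members just inside the PACAP limit had differences of 1.001, 1.002 and 1.005, and the probesets just outside it had 0.998, 0.995 and 0.991. The smallest pair difference was 0.522, 0.531 and 0.535 for the members nearest that limit and 0.497, 0.475 and 0.353 for the probesets just beyond it. At the TNF limit the nearest members stood at 0.499, 0.495 and 0.495, and the nearest probesets outside at 0.501, 0.506 and 0.507.

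**Figure D1:**
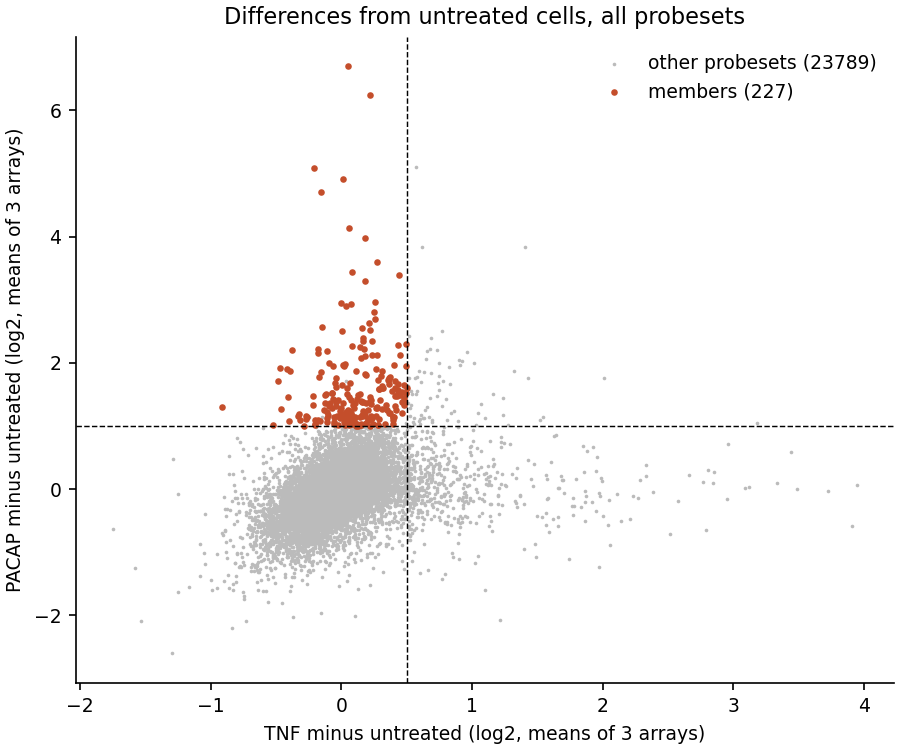
Each point is 1 probeset, with its TNF minus untreated difference on the x axis and its PACAP minus untreated difference on the y axis (log2, differences of means of 3 arrays); dashed lines mark 0.5 and 1. The 227 members (orange) fill the upper left field by construction, thin out above a PACAP difference of 2 and reach the TNF limit with no gap from the grey probesets beyond it.

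Most members were raised by a small multiple and a few by a very large one. The PACAP difference had a median of 1.37 and ran from 1.00 to 6.70, against a median of 0.00 over all probesets. In 188 members it lay between 2-fold and 4-fold, in 33 between 4-fold and 16-fold, and in 6 it was at least 16-fold. The 6 strongest had a median untreated level of 5.15 (log2), which is dim on these arrays, and a median PACAP level of 11.00. The 33 in the middle class went from a median of 6.05 to 8.83, and the 188 weakest from 7.63 to 9.05.

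Member 1, Bt.11212.1.S1_at, read 4.94, 4.73 and 5.37 (log2) on untreated repeats 1, 2 and 3. With PACAP it read 11.64, 12.04 and 11.47, and with TNF 4.87, 4.80 and 5.51. Every PACAP array lay far above all others, and the untreated and TNF arrays overlapped. Its mean went from 5.01 ± 0.33 (SD, n = 3) to 11.71 ± 0.29, which took it from the 28.4th to the 97.9th percentile of all probesets ordered by group mean.

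Member 2, Bt.12930.1.S1_a_at, read 4.66, 4.34 and 6.84 on the untreated arrays. With PACAP it read 11.11, 11.38 and 12.08, and with TNF 5.01, 5.04 and 6.45. The repeat 3 array was the highest of its group in all 3 groups, and the untreated spread of ± 1.36 (SD, n = 3) was the widest of any member. The PACAP difference was 6.46, 7.04 and 5.24 in repeats 1, 2 and 3, so all 3 repeats showed a rise of more than 16-fold.

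Member 3 started lower still, at 3.61, 4.02 and 4.83 on the untreated arrays. It read 8.99, 9.23 and 9.52 with PACAP and 3.49, 3.62 and 4.73 with TNF. In each repeat its TNF array lay slightly below the untreated one, while PACAP raised it by 5.09 on average. Member 4 read 5.88, 5.71 and 6.35 untreated, 11.20, 11.06 and 10.42 with PACAP and 6.00, 5.74 and 6.23 with TNF. Its TNF mean differed from the untreated mean by 0.01, against a PACAP difference of 4.92 (30.2-fold).

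Member 5 read 4.73, 4.54 and 4.94 untreated and 4.41, 4.47 and 4.87 with TNF. Its PACAP arrays read 8.67, 9.32 and 10.34, a wider spread (SD 0.84) than that of its untreated arrays (SD 0.20). The PACAP difference was thus largest in repeat 3, at 5.40, where most members had their smallest. Member 6 read 6.76, 6.62 and 7.53 untreated, 11.35, 11.23 and 10.72 with PACAP and 6.66, 6.66 and 7.77 with TNF. It was the brightest of these 6 before treatment and showed the smallest rise among them, 4.13.

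Members 7 to 10 differed by 3.97, 3.60, 3.44 and 3.39 from untreated cells with PACAP. Their TNF differences were 0.18, 0.27, 0.08 and 0.44. Member 9 was the dimmest member of all before treatment, at 2.85, 3.08 and 3.23, and reached 6.84, 6.81 and 5.83 with PACAP. At 3.21, 3.12 and 3.07, its TNF arrays stayed at the level of the untreated ones. Member 10 stood closest to the TNF limit among these 10, with TNF arrays at 5.92, 5.73 and 6.01 against 4.94, 5.39 and 6.01 untreated; its TNF difference was 0.98 in repeat 1 and 0.00 in repeat 3.

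**Figure D2:**
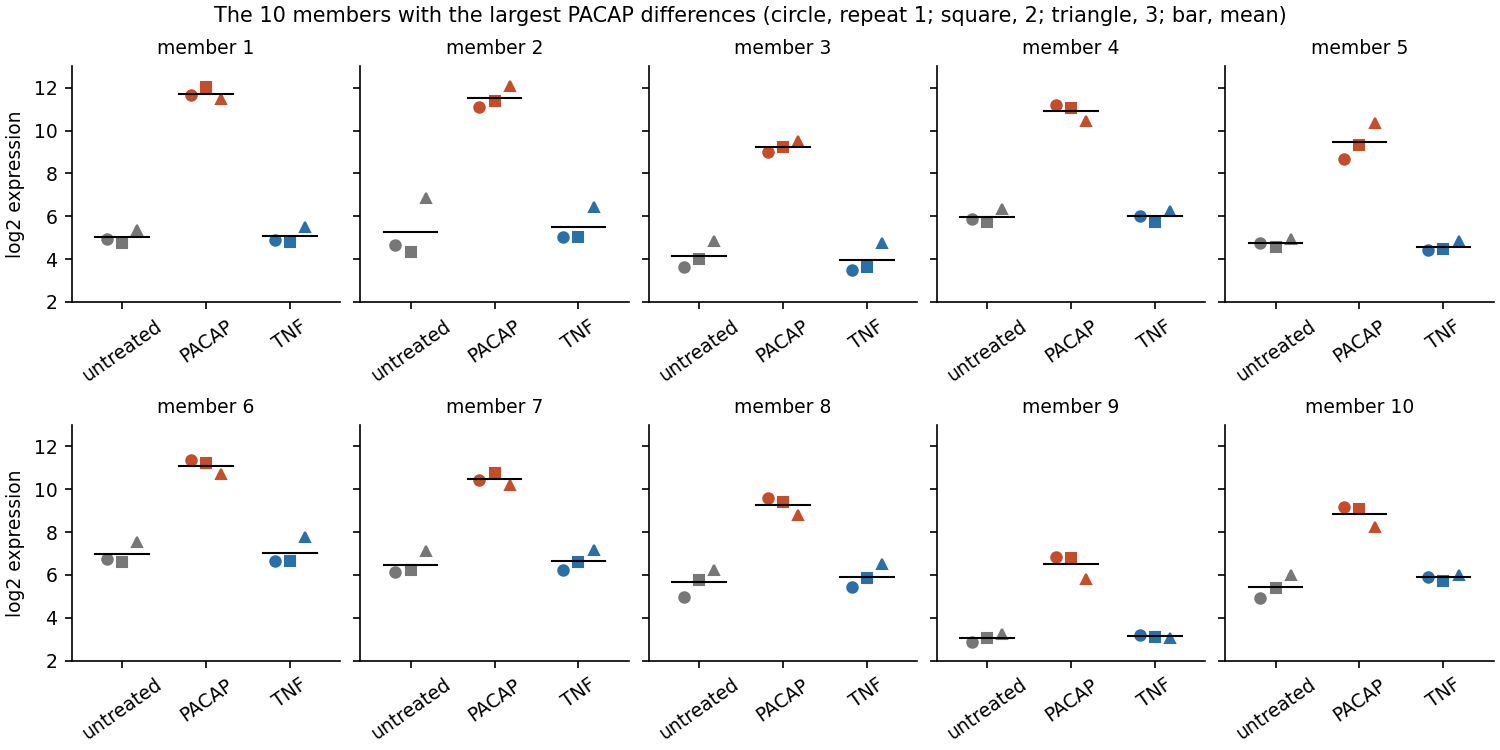
Log2 expression of the 10 members with the largest PACAP differences; each symbol is 1 array (circle, repeat 1; square, repeat 2; triangle, repeat 3), grouped into untreated (grey), PACAP (orange) and TNF (blue), and bars are means of 3 arrays. In all 10 panels every PACAP array lies above every untreated and TNF array, while untreated and TNF arrays lie side by side, and in member 2 the repeat 3 triangles stand well above the other untreated and TNF symbols.

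The members with the smallest differences look different on single arrays. Member 227 read 6.41, 6.48 and 6.77 untreated and 6.95, 7.71 and 8.01 with PACAP. Its TNF arrays, at 6.67, 6.97 and 6.34, reached above the lowest PACAP array. Member 226 read 7.97, 8.01 and 8.75 untreated, 9.25, 9.17 and 9.32 with PACAP and 8.65, 8.58 and 8.15 with TNF. In that member the TNF difference was 0.68 and 0.57 in repeats 1 and 2 and -0.60 in repeat 3, so that its TNF mean of 0.22 above untreated hides opposite values.

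Member 225 read 7.01, 7.06 and 7.34 untreated, 8.27, 8.06 and 8.10 with PACAP and 7.12, 7.15 and 7.52 with TNF, and its PACAP arrays stood clear of the rest. Member 224 read 9.37, 9.28 and 9.83 untreated, 10.59, 10.42 and 10.48 with PACAP and 8.97, 8.98 and 9.67 with TNF, lower than untreated in every repeat. Member 223 read 4.23, 4.71 and 4.50 untreated, 4.76, 5.85 and 5.85 with PACAP and 4.76, 4.76 and 4.34 with TNF. Its first PACAP array thus had the same value as 2 of its TNF arrays.

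Before treatment the members covered most of the range of the array. Their untreated means ran from 3.05 to 11.44 with a median of 7.26, the 57.3th percentile of all probesets, and with PACAP the median was 9.05, the 81.1th percentile. With TNF it was 7.46, the 60.2th percentile. When all probesets were cut into 5 equal parts by untreated level, members made up 0.229% of the dimmest part (11 members), 0.833% of the next (40), 1.35% of the middle part (65), 1.5% of the fourth (72) and 0.812% of the brightest (39).

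From the dimmest to the brightest of the 5 parts, the median PACAP difference of the members was 2.18, 1.39, 1.46, 1.31 and 1.22. The dimmest part held only 11 members. Among the 39 in the brightest part the difference reached 2.55, and the largest of all, 6.70, lay in the second part. Member 167 had the highest untreated level, with 11.50, 11.43 and 11.40, and read 12.79, 12.70 and 12.27 with PACAP. Member 76 reached the highest PACAP level, 13.03, 13.14 and 12.94, from 11.19, 11.16 and 11.96. Both had TNF differences near the limit, 0.40 and 0.41. The 227 members are not independent samples and share all arrays. Across them, untreated level and PACAP difference had a Pearson correlation of -0.31, against -0.09 over all probesets. The untreated arrays enter both measures. In untreated cells 92 members lay under the median of the array, and with PACAP 29 lay under the median of that group. Those in the brightest 10% of the array numbered 13 in untreated cells and 60 with PACAP.

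**Figure D3:**
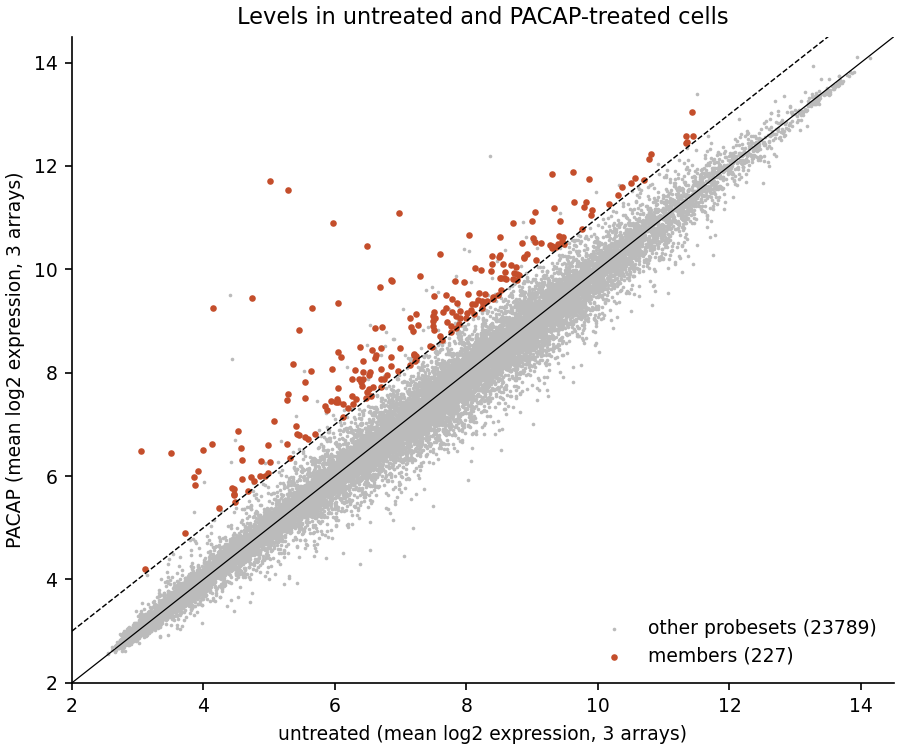
Mean log2 expression in untreated cells (x axis) against PACAP-treated cells (y axis), 1 point per probeset and 3 arrays per mean; the solid line is equality and the dashed line a difference of 1. Members (orange) start anywhere between 3.05 and 11.44, and the points farthest above the dashed line are those that start below 7.

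In the limma fit over all probesets, 221 of the 227 members were called higher with PACAP than in untreated cells (adjusted p under 0.05), where 5.95% of all probesets were called; the rule used this contrast, so the count says only how the rule and the test overlap. The moderated standard error of the differences ran from 0.07 to 0.65 with a median of 0.18. The 6 members not called were members 109, 117, 144, 158, 168 and 208. In 5 of them the repeat 3 array lay farther from repeats 1 and 2 than these from each other in every group, as in member 117, which read 7.39, 7.12 and 5.60 untreated and 8.53, 8.56 and 7.11 with PACAP. Member 168 was dim and spread over its untreated arrays, at 3.58, 4.27 and 4.87. With the replicate block, which takes out what arrays of 1 repeat share, all 227 members were called, these 6 included, where 9.19% of all probesets were. All 3 PACAP arrays lay above all 3 untreated arrays in 225 members, against 14.2% of all probesets.

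The TNF differences of the members were small but not evenly placed around 0. Their median was 0.11, against -0.01 over all probesets, with a range from -0.92 to the limit of 0.50, and 164 members (72.2%) stood above 0, against 45.6% of all probesets. PACAP and TNF differences share the untreated arrays, and the part of this in the TNF values was not tested. By TNF difference, 63 members lay from 0.25 up to the limit, 147 between -0.25 and 0.25, and 17 below -0.25. The median PACAP difference was 1.54 in the first of these classes, 1.33 in the second and 1.19 in the third. The largest, 6.70, lay in the second class. Across the members PACAP and TNF differences had a Pearson correlation of 0.03, against 0.37 over all probesets. The rule bounds both differences, so nothing is read from the low value among the members.

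No member was called higher with TNF than in untreated cells by limma at an adjusted p under 0.05 (0 of 227, with 1.33% of all probesets called). At an unadjusted p under 0.05 the count was 25 members, or 11.0%, against 5.44% of all probesets. A single one, member 135, was called lower, where 0.575% of all probesets were. It read 8.52, 8.49 and 8.71 untreated, 8.14, 8.08 and 8.12 with TNF and 9.79, 9.76 and 9.98 with PACAP, so that the 3 groups did not overlap. With the replicate number as a block the counts became 3 higher and 4 lower, where 2.81% and 2.52% of all probesets were called. The rule holds the mean TNF difference under 0.5. A low count of higher calls was thus set in advance, and nothing is read from it. Without untreated replicate 3 the count was 12 higher, where 1.71% of all probesets were called. The call of member 135 was lost without any 1 of untreated replicates 1 and 2, PACAP replicates 1 and 2 or any of the TNF replicates.

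The count of TNF calls changed when all repeat 3 arrays were left out, a fit chosen after seeing the data. The rule bounds the mean of all 3 repeats, so this fit also loosens that limit. With only the TNF array of repeat 3 left out, 1 member was called higher, where 1.77% of all probesets were. Fitted on repeats 1 and 2 alone, 51 members (22.5%) were called higher with TNF than in untreated cells, where 5.89% of all probesets were called, and 12 (5.29%) were called lower, where 6.24% were. The mean TNF difference over those 2 repeats had a median of 0.17 and was at least 0.5 in 28 members (12.3%, against 3.56% of all probesets). In repeat 3 the median was 0.01. The label of these probesets as not raised by TNF therefore describes the mean of 3 arrays under a limit of 0.5, and it does not hold for every member in every repeat: 48 members (21.1%) had a TNF difference of at least 0.5 in 1 or more repeats, against 6.74% of all probesets. The series describes the repeats as technical, and whether they came from the same culture is not stated.

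The 51 members called there had a median TNF difference of 0.53 in repeats 1 and 2 and of 0.06 in repeat 3. They were called on repeats 1 and 2, and the rule holds the mean of 3 repeats under 0.5. The lower value in repeat 3 is therefore partly set in advance. The median PACAP difference of the 51 was 1.81 in repeats 1 and 2, larger than their TNF difference there. Member 87 showed the largest TNF difference over these repeats. It read 9.11, 9.19 and 9.96 untreated, 9.96, 9.84 and 9.96 with TNF and 11.20, 11.00 and 10.63 with PACAP. The untreated array of repeat 3 already stood at the TNF level, and the PACAP arrays were above both in every repeat.

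At the other end stood members with lower means with TNF and higher means with PACAP than in untreated cells. Members 128, 216, 65 and 47, described here, were not called lower with TNF in the fit of all 9 arrays. Member 128 had the lowest TNF difference, -0.92, and read 4.80, 4.58 and 4.0 untreated, 3.58, 3.68 and 3.39 with TNF and 5.94, 5.89 and 5.44 with PACAP. All 3 of its groups were apart. Member 216 read 8.17, 8.24 and 7.95 untreated, 7.75, 7.96 and 7.06 with TNF and 9.28, 9.19 and 8.95 with PACAP. Member 65 read 8.18, 8.20 and 8.78 untreated, 7.40, 7.87 and 8.44 with TNF and 10.32, 10.20 and 9.78 with PACAP. Their untreated and TNF arrays overlapped, although TNF was the lower one within each repeat. Member 47 showed the same order, at 6.89, 6.95 and 7.57 untreated, 6.41, 6.65 and 6.95 with TNF and 9.24, 9.18 and 8.77 with PACAP. TNF was lower than untreated in all 3 repeats in 31 members (13.7%, against 20.6% of all probesets) and higher in all 3 in 81 (35.7%, against 14.8%). All 3 TNF arrays lay above all 3 untreated arrays in 19 members, or 8.37%, where 6.52% of all probesets did, and below them in 10, or 4.41%, where 9.35% did.

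Set directly against TNF, the members were higher with PACAP by a median of 1.27 and by 0.64 to 6.65, at doses that differ (100 nM and 10 nM). limma called 209 of the 227 higher with PACAP than with TNF at an adjusted p under 0.05, where 3.97% of all probesets were called; with the replicate block all 227 were, against 6.90% of all probesets. This contrast is the difference of those that chose the members, so its size is not separate evidence. All 3 PACAP arrays exceeded all 3 TNF arrays in 222 members, against 11.2% of all probesets. The smallest difference was that of member 211, which read 6.22, 6.23 and 6.59 with PACAP, 5.59, 5.79 and 5.75 with TNF and 5.48, 5.53 and 4.94 untreated. TNF covered part of the way from untreated to PACAP in that member.

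The members did not behave alike in the 3 repeats. Their median PACAP difference was 1.53 in repeat 1, 1.52 in repeat 2 and 1.11 in repeat 3, and repeat 3 gave the smallest of the 3 values in 176 members (77.5%), against 33.8% of all probesets. The untreated array of repeat 3 lay above the mean of untreated repeats 1 and 2 in 186 members (81.9%), by a median of 0.37; over all probesets the share was 53.2% and the median 0.01. The 72 probesets left out by the TNF limit had shares close to those of the members: repeat 3 gave the smallest value in 79.2% of them, and the untreated array of repeat 3 was the higher in 77.8%. The TNF array of repeat 3 was higher by a median of 0.25 among the members, while the PACAP array of repeat 3 was lower, with a median of -0.12. In the 72 these medians were 0.08 for TNF and 0.13 for PACAP, so they did not share the lower PACAP level. Among the members the smaller rise in repeat 3 thus came with a higher starting level as well as a slightly lower PACAP level. No label says how repeat 3 differs, and its part in these results was not tested beyond the fits without it.

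Single members show how far this went. Member 34 read 9.55, 9.62 and 7.47 with PACAP and 6.71, 6.85 and 6.62 untreated, so its rise was 2.84 and 2.77 in repeats 1 and 2 but 0.86 in repeat 3. Member 32 read 11.47, 11.47 and 9.78 with PACAP and 8.99, 8.95 and 8.18 untreated. In members such as 135, 161 and 57 the pairs were close: member 57 rose by 1.83, 1.75 and 1.76. Member 161 read 10.69, 10.66 and 10.18 untreated and 11.83, 11.83 and 11.34 with PACAP, so both groups were lower in repeat 3 by the same amount.

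**Figure D4:**
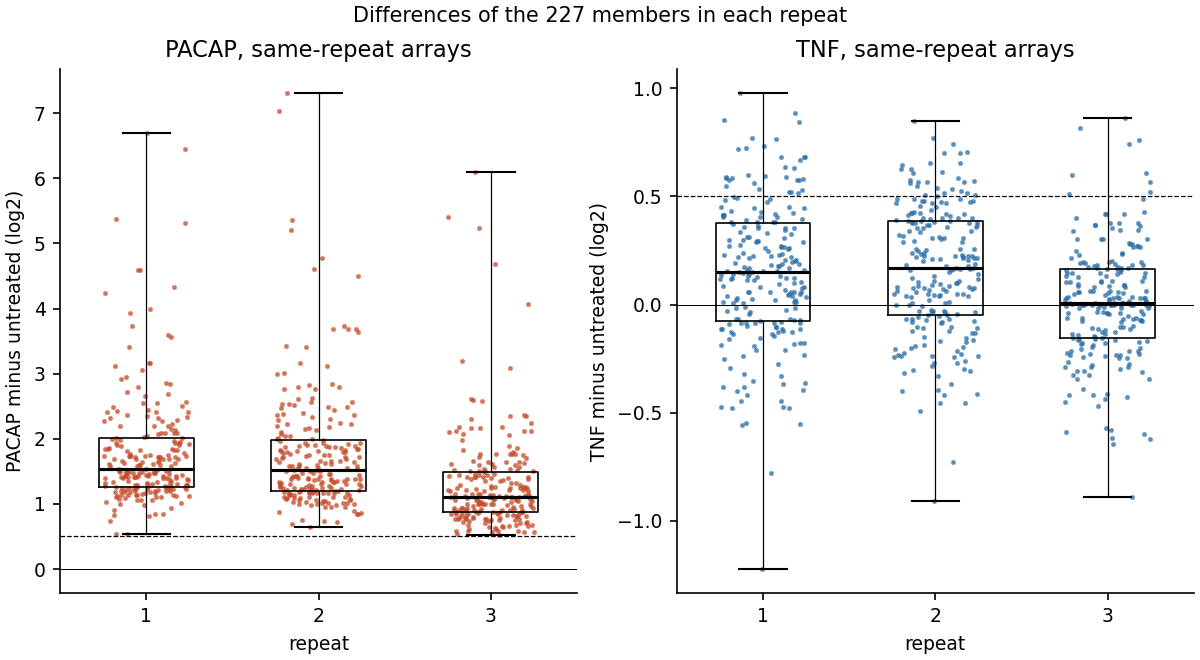
Differences of the 227 members from the untreated array of the same repeat (log2), for PACAP on the left and TNF on the right, with different y scales; each point is 1 member, boxes span the quartiles with the median as a bold line, and whiskers reach the lowest and highest member. PACAP medians are 1.53, 1.52 and 1.11 and TNF medians 0.15, 0.17 and 0.01 in repeats 1, 2 and 3; the dashed line at 0.5 is the rule's limit, for each pair on the left and for the mean on the right.

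To see values that did not choose the probesets, the rule was applied to 2 repeats and the repeat left out was read. Repeats 1 and 2 were more alike than either was to repeat 3. Over all probesets, PACAP differences had Pearson correlations of 0.85 between repeats 1 and 2, and of 0.73 between either and repeat 3. For TNF differences these were 0.81, 0.37 and 0.38. With repeat 1 or 2 left out, the repeat most like it was among those that chose. A high PACAP share there was thus partly set in advance. Repeats 2 and 3 chose 214 probesets, of which 190 were members, and in repeat 1 all 214 were higher with PACAP, 211 (98.6%) by at least 0.5 and 193 (90.2%) by at least 1. Over all probesets 7.19% reached 0.5 in that repeat. Repeats 1 and 3 chose 231, of which 229 (99.1%) reached 0.5 in repeat 2, against 6.72% of all. Repeats 1 and 2 chose 295, of which 290 were higher in repeat 3 but only 233 (79.0%) by at least 0.5 and 121 (41.0%) by at least 1; over all probesets the shares were 3.87% and 0.966%. The median PACAP difference of those 295 was 1.28 where they were chosen and 0.87 in repeat 3. The other repeats went the other way, from 1.35 where chosen to 1.61 in repeat 1 and from 1.32 to 1.54 in repeat 2.

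The TNF limit carried over less evenly. Of the probesets chosen on 2 repeats, the TNF difference in the repeat left out was under 0.5 in 171 of 214 (79.9%) for repeat 1, in 191 of 231 (82.7%) for repeat 2 and in 282 of 295 (95.6%) for repeat 3. Among all probesets these shares were 96.3%, 95.7% and 97.0%. PACAP was nevertheless higher than TNF in the repeat left out in 213 of 214, 229 of 231 and 287 of 295 of them, against 50.1%, 52.2% and 46.0% of all probesets. As the series describes the repeats as technical, these values speak for the arrays and not for other cultures.

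The IDs hold one more feature that the rule did not use. In IDs of the form Bt. followed by a number, that number is the cluster of sequences the probeset was designed from, and probesets that share it often, though not always, report on 1 gene. The 225 members with such an ID carried 205 numbers; 152 of these numbers had 1 probeset on the array and 53 had more. Of the 53, 20 had 2 probesets that were both members, and no number held more than 2 members. Members 2 and 5 formed such a pair, with PACAP differences of 6.25 and 4.71, as did members 7 and 8, with 3.97 and 3.60.

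Within the 20 pairs the PACAP differences were a median of 0.16 apart and within 0.5 of each other in 18, although the untreated levels were a median of 1.06 apart. The TNF differences had the same sign in 17 of the 20 and lay a median of 0.08 apart. As 72.2% of all members had a TNF difference above 0, many pairs of unrelated members would share a sign too. Members 47 and 65, both among the 5 with the lowest TNF differences, were a pair, at -0.47 and -0.48, and so were members 196 and 216, at -0.40 and -0.53. Members 83 and 87 formed a pair at the other end, at 0.46 and 0.50. Both probesets of each pair passed the same rule, so the likeness of the PACAP differences is partly set by it. The rule also holds both TNF differences of a pair under 0.5.

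**Figure D5:**
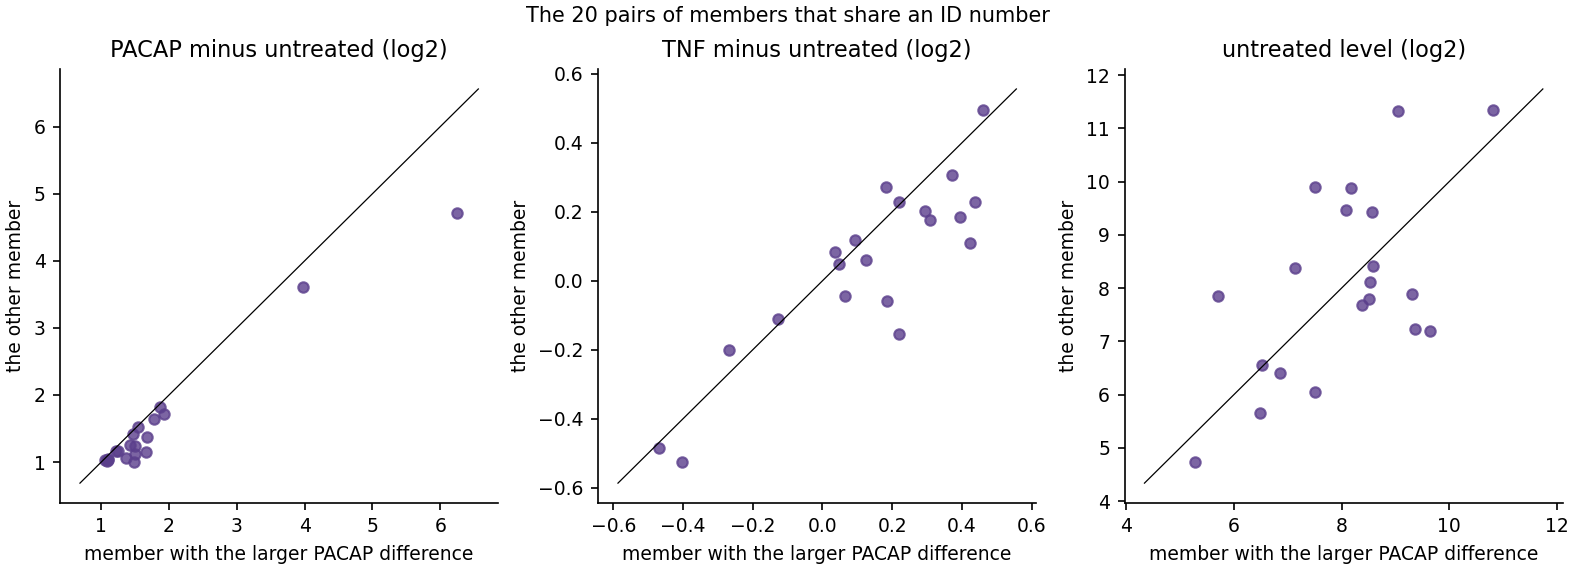
The 20 pairs of members that share an ID number: values of the member with the larger PACAP difference (x axis) against the other one (y axis), for the PACAP difference, the TNF difference and the untreated level (all log2), with the line of equality. TNF differences lie near the line from about -0.5 to 0.5, and untreated levels scatter widely around it, up to 2.44 apart.

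The other 33 numbers held 49 probesets that were not members. Their PACAP differences had a median of 0.46, against 0.00 over all non-members, and 44 of the 49 were above 0. A difference of at least 0.5 was seen in 23 of them (46.9%), against 4.14% of all non-members, and 8 had a difference of at least 1. All 8 of these had been left out by the TNF limit alone, with TNF differences from 0.50 to 0.69, so for those numbers the limit of 0.5 on TNF placed probesets of 1 number on both sides. The 49 were dim, with a median untreated level of 5.70 and 34 of them below the median of all probesets. The lowest value was -0.73, in a probeset at 11.02 untreated that shares its number with member 86. That number held 11 non-members in all, 7 above 0 and 4 below it, with 0.70 the highest.

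Most members had IDs ending in _at, and 11 (4.85%) ended in _a_at, an ending Affymetrix gives to probesets that match several transcripts of 1 gene; among all probesets the share was 5.33%. None of the 227 ended in _s_at or _x_at, which mark probes shared between genes or prone to cross-hybridise, against 1.36% of all probesets.

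The 72 probesets that met the PACAP conditions but had a TNF difference of at least 0.5 started at a median untreated level of 7.17, near the 7.26 of the members. Their median PACAP difference was 1.51, against 1.37. In 58 of them the TNF difference was under 1 and in 14 it was larger, up to 3.18. Since both sets were chosen on these values, the differences between them were not tested.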

How the data were processed

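The authors deposited log2 expression values, 1 per probeset and array, for 9 Affymetrix bovine arrays; the tools were Affymetrix Expression Console and RMA, per the submitters' processing notes, with versions and settings not given in the sources used here. Of 24128 probesets, the 112 controls were left out. Array medians lay between 6.65 and 6.72, and the number of arrays limits the precision.

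Members and lists were chosen with earlier results of these data known. Group means of all 9 arrays were fitted to the 24016 probesets with limma 3.58.1 in R 4.3.3, with empirical Bayes moderation, two-sided tests, 6 residual degrees of freedom and Benjamini-Hochberg adjustment within each contrast; a call is an adjusted p under 0.05. A fold is 2 raised to the log2 difference. The fit was tested on simulated data with independent noise on each array. Those data held no deviations shared by same-numbered arrays, so the test does not cover that feature of the measured arrays. Probesets were described singly by a fixed rule: the 10 largest and 5 smallest PACAP differences, the 5 lowest TNF differences and the extreme untreated levels; others named were chosen after their values were seen. Gene lists and markers fixed for this work were not applied, for want of gene names.

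Between groups, same-numbered arrays deviated together from the group mean over probesets, with correlations of 0.23 to 0.47 (repeat 1), 0.41 to 0.53 (repeat 2) and 0.57 to 0.65 (repeat 3), all above 0.1, so a fit with the replicate block was run as well. Other alternatives were 3 normalizations, a filter on dim probesets, an intensity trend with a robust prior, fits of 6 arrays, other limits in the rule and each array left out; leaving out all repeat 3 arrays was chosen after seeing the data.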

Additional observations from a re-analysis of the deposited data

How the results depend on the processing

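The number of members was 350 with a PACAP limit of 0.8, 89 with 1.5, 147 with TNF differences held between -0.25 and 0.25, and 124 with every pair at least 1. It lay between 164 and 246 under the 3 normalizations, the filter on dim probesets, a TNF limit of 0.25 and no condition on pairs. With each array left out, or all repeat 3 arrays, it ran from 222 to 295, and 174 to 220 of the 227 were kept. The fewest were kept without untreated replicate 3.

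With all 227 members tested, those called higher with PACAP than untreated numbered 192 to 227, where 2.91% to 12.1% of all probesets were called, and those called higher with PACAP than with TNF numbered 168 to 227, against 1.98% to 10.0%. Both counts were 227 with the replicate block. The filter on dim probesets left 173 members to test, of which 170 and 165 were called. Members called higher with TNF, 0 in the fit described, numbered 1 after quantile normalization (1.43% of all probesets were called), 1 after cyclic loess (1.40%), 3 with the replicate block (2.81%), and 0 to 51 with arrays left out (0.446% to 5.89%). Members called lower with TNF, 1 in that fit, numbered 0 with median centring (0.508% of all probesets), 0 with the intensity trend and robust prior (0.504%), 0 in fits of 6 arrays (0.258%), 4 with the replicate block (2.52%), and 0 to 12 with arrays left out (0.05% to 6.24%). The highest of both ranges came without all repeat 3 arrays.

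With a PACAP limit of 1.5 on the 2 repeats that chose, 100% (repeat 1), 100% (repeat 2) and 95% (repeat 3) of the probesets reached 0.5 in the repeat left out. Over all probesets 7.19%, 6.72% and 3.87% did. A difference of at least 1 was reached by 100%, 100% and 75% of those chosen, against 1.97%, 1.81% and 0.966% of all probesets. Among members described singly, 14 PACAP differences recomputed under other settings moved by more than the spread between repeats and 259 did not. Among the TNF differences 35 moved so and 238 did not. No PACAP difference changed sign, which the rule's limits of 1 and 0.5 made nearly certain, so nothing is read from it. TNF differences near 0 did change sign, as in member 1 (-0.18 to 0.23). The TNF difference passed the limit of 0.5 under some setting in member 2 (up to 1.00), member 10 (0.72) and member 8 (0.56). The files give no detection call, so how far the dimmest members stood above background is unknown. The cause of these changes was not tested.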
